A study of Rattus norvegicus with 12 samples.

Results

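The Egr family and its Nab corepressors were followed in PC12 cells, a rat line established from a pheochromocytoma (a tumour of adrenal chromaffin cells), during the first 120 min with the neuropeptide PACAP38. The 6 genes were taken by symbol from the array's annotation (Egr1, Egr2, Egr3, Egr4, Nab1 and Nab2), and they have 8 of the 41012 probes. PACAP38 was added at 10⁻⁷ M for 5, 10, 15, 30, 60 or 120 min. RNA of n = 6 was pooled for treated and for control cells, and a pool of treated cells was hybridized with control RNA labelled with the time point to 2 Agilent arrays that read Cy5 and Cy3, with PACAP38 in Cy5 on one and in Cy3 on the other. All cells are of 1 tumour-derived line. The exchanged dyes repeat the hybridization, not the culture, so a time point counts as 1 replicate. Whether the time points have control cultures of their own or share one control pool is not stated, and in the latter case they are not independent in the tests over time points. The spread between the 2 folds of a time point is given as the error, and no single time point was tested. Of 3 slides, one carried 5 and 10 min, the next 15 and 30 min, and the last 60 and 120 min.

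Egr1 to Egr4 encode zinc finger transcription factors that bind GC-rich sites and are switched on within minutes by growth factors, neuropeptides and depolarization, without new protein synthesis. This immediate early response runs through the MAP kinase ERK and the factors SRF and Elk, which bind CArG boxes, and through CREB, which binds cAMP response elements. Nab1 and Nab2 bind the Egr1, Egr2 and Egr3 proteins and recruit a chromatin-remodelling and deacetylase complex that represses Egr target genes. In neurons and PC12 cells Egr1 and Nab2 are known as part of a negative feedback, in which Nab2 is itself an Egr target.

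The regions just upstream of the genes are shown first, because motifs for SRF, CREB and the Egr proteins themselves can be read in them. A RefSeq promoter (rat build GRCr8) was at hand for 5 of the 6 genes, and the 250 bases before the start of transcription are printed for each in the direction of the gene. Capitals mark the CArG box (CC, 6 bases of A or T, then GG), the cAMP response half-site CGTCA, and the Egr sites GCGTGGGCG and GCGGGGGCG, each searched on both strands. The regions are chr18:26736828-26737077 on the plus strand for Egr1, chr20:21054442-21054691 on the minus strand for Egr2, chr4:119607818-119608067 on the minus strand for Egr4, chr9:56545392-56545641 on the plus strand for Nab1 and chr7:65389256-65389505 on the minus strand for Nab2.
Egr1: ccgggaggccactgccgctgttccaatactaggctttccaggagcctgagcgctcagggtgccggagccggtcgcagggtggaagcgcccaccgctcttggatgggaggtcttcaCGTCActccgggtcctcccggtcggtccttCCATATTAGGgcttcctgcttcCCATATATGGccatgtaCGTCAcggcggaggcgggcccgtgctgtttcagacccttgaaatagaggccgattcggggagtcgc
Egr2: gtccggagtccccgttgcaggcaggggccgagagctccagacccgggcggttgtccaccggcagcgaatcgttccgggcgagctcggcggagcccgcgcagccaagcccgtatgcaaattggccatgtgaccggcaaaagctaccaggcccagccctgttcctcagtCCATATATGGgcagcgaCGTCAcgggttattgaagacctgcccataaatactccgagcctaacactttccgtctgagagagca
Egr4: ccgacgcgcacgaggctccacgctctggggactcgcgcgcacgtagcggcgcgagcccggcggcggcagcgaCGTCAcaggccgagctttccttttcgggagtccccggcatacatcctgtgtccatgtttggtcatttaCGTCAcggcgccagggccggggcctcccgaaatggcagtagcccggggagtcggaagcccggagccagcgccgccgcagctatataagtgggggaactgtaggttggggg
Nab1: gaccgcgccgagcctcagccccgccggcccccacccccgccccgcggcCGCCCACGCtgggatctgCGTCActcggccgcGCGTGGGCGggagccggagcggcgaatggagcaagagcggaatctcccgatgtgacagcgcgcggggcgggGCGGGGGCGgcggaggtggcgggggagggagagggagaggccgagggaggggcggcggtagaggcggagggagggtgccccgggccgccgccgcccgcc
Nab2: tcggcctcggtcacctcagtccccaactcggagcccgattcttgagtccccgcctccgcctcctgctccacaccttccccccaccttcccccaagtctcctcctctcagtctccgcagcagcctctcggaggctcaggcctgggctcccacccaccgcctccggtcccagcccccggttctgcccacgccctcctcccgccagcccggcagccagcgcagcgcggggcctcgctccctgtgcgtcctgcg

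Egr1 held 2 CArG boxes, at -105 to -96 and at -83 to -74 from the start, and Egr2 held 1, also at -83 to -74. In both genes a half-site CGTCA followed the CArG box after 7 bases, at -66 to -62. Egr1 had a further half-site at -135 to -131. Egr4 had no CArG box in this window and 2 half-sites, at -178 to -174 and at -110 to -106. Nab1 held 3 Egr sites and 1 half-site, and none of these motifs was found for Nab2. Among 27457 rat promoters of the same length, 1.5% held a CArG box, 0.0255% held 2 or more, and 19.0% held a half-site, so a half-site on its own is common. A CArG box together with a half-site was found in 0.248%, and the spacing shared by Egr1 and Egr2, looked for after it was seen, in 3 promoters. The third belongs to Dusp5, a phosphatase of ERK, whose fold was 2.33 after 30 min, 5.48 after 60 min and 6.69 after 120 min. It was called higher at each, where 0.249, 0.871 and 1.95% of all probes were. Dusp5 was named after its values were seen, and a role of the spacing was not tested. GCGTGGGCG was in 0.514% and GCGGGGGCG in 2.49% of promoters. The full cAMP response element TGACGTCA, in 1.70% of promoters, was in none of the 5 windows. A match describes the letters only.

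**Figure D1:**
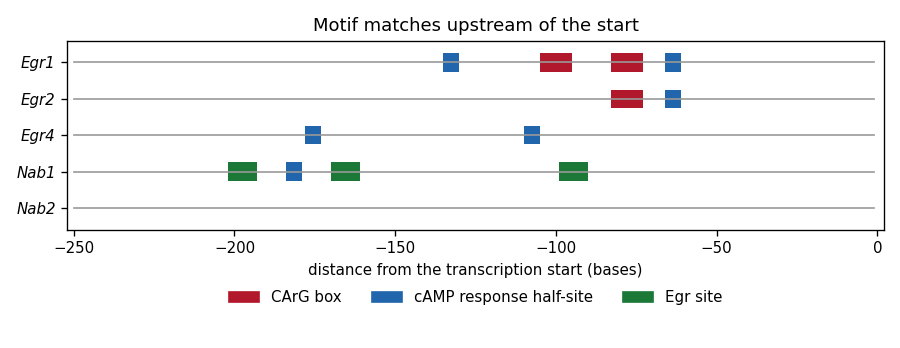
Motif matches in the 250 bases before the start of transcription, by distance from the start in bases, for the 5 genes with a RefSeq promoter. Egr1 and Egr2 have a CArG box and a half-site at the same distances, Nab1 has 3 Egr sites, and Nab2 has no match.

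The labelled cells were checked by their markers. All 7 chromaffin markers on the array (Th, Dbh, Ddc, Slc18a1, Chga, Chgb and Scg2) were well above background in the control RNA on all 12 arrays. They were not flat with PACAP38 at 120 min, where Scg2, a granin of secretory granules, was called higher (2.05-fold and 2.03-fold on the arrays), Dbh was at 2.36-fold without a call, and the median log2 ratio of the 7 was 0.43 against -0.02 over all measured probes. Of 7 markers of other cells, 5 (Gfap, Ptprc, Pecam1, Alb and Ins2) were never well above background there. Mbp was so on 3 arrays and Col1a1, a collagen gene, on 12. Between 38.4 and 49.6% of the spots of an array were well above background in either channel, and no spot was saturated. Fewer cells that use a gene and less of its RNA per cell cannot be told apart in such pools.

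Transcripts of 4 of the 6 genes, all of them Egr genes, were called higher with PACAP38 at 1 or more time points. Their first calls came in the order Egr1, Egr4, Egr3 and Egr2, and neither Nab gene was called. This is the order of passing the limits below, and their probes rank the same way by mean processed signal (4616, 1358, 188 and 16.2). Without the p-value limit Egr4 was also called at 10 min and Egr3 at 15 min. A gene was called higher with a fold of at least 2 and a spot p-value below 0.01 on both arrays, and lower with a fold of at most 0.5 by the same rule. No member was called at 5 min, where 0.0% of all probes were called higher. Egr1 alone was called after 10 min (background 0.0659%), Egr1 and Egr4 after 15 min (background 0.0902%), Egr1, Egr3 and Egr4 after 30 min (background 0.249%), these and Egr2 after 60 min (background 0.871%), and Egr1, Egr3 and Egr4 after 120 min (background 1.95%). No member was called lower at any time point, where 0.0, 0.0, 0.0268, 0.102, 0.376 and 1.53% of all probes were called lower from 5 to 120 min, so that 0 of 8 probes is near the background.

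**Figure D2:**
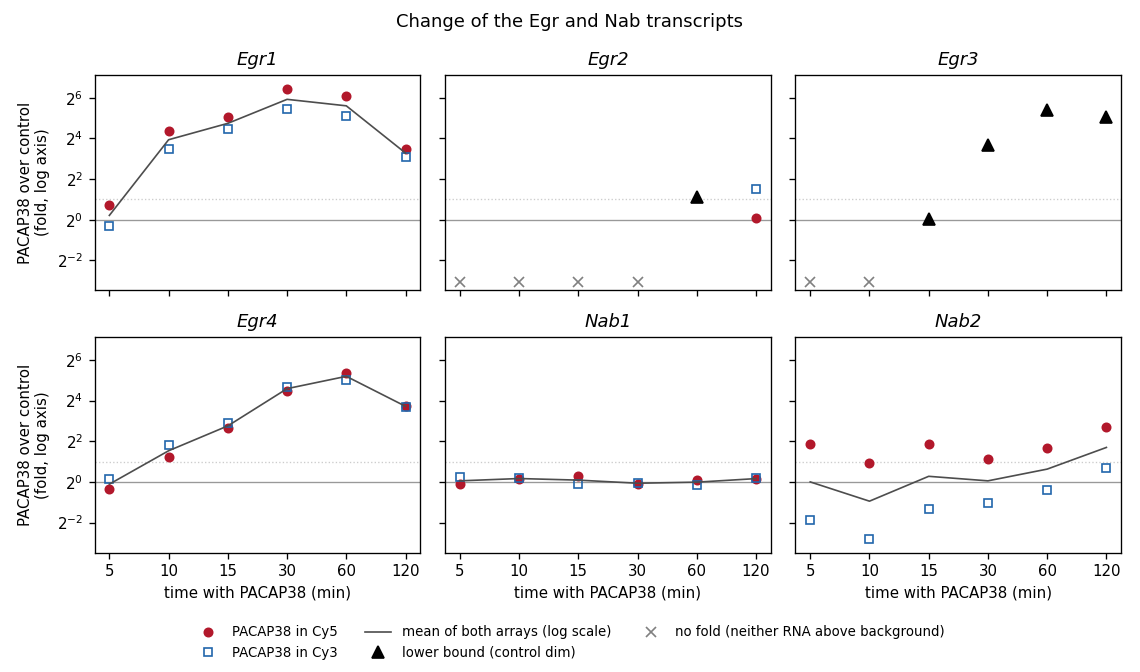
PACAP38 over control (fold, log axis) at 6 time points for the brightest probe of each gene. Circles and squares are the arrays with PACAP38 in Cy5 and in Cy3, the line is their mean on the log scale, triangles are lower bounds and crosses mark no fold. Egr1 and Egr4 rise to 60.7-fold and 36.5-fold and then decline, Nab1 stays near 1, and the Nab2 arrays lie on opposite sides of 1 up to 60 min.

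Egr1 rose earliest. Its probe, at chr18:27347173-27347232 on rat build rn4, is printed on 10 spots of each array. In the control the scaled signal (the processed intensity put on a common scale over the arrays) was 159 to 446 over the 12 arrays, with a median of 284, so that the transcript was measurable without PACAP38. With PACAP38, in Cy5 and in Cy3 in turn, the scaled signal was 359 and 230 after 5 min, 3322 and 3631 after 10 min, 12040 and 9415 after 15 min, 23240 and 18800 after 30 min, 17470 and 15580 after 60 min, and 3001 and 2398 after 120 min. From 10 min on, every signal with PACAP38 lay above every control signal, while at 5 min the groups overlapped.

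The Egr1 fold was 1.67 on the array with PACAP38 in Cy5 and 0.805 on the one with PACAP38 in Cy3 at 5 min, which lie on opposite sides of 1. It was 20.9 and 11.2 after 10 min, 32.9 and 21.8 after 15 min, 85.7 and 42.9 after 30 min, 67.7 and 34.9 after 60 min, and 11.1 and 8.49 after 120 min. The mean folds on the log scale were 15.3, 26.8, 60.7, 48.6 and 9.72 from 10 to 120 min. Ordered by fold among the probes measured in both RNAs, Egr1 ranked 2 of 17368 after 10 min, 1 of 17524 after 15 min, 1 of 17099 after 30 min, 4 of 19734 after 60 min and 77 of 18379 after 120 min.

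The step from 5 to 10 min, within 1 slide, was 13.2-fold, or 3.64 log2 between the arrays with PACAP38 in Cy5 and 3.80 log2 between those with it in Cy3. The next steps were 1.75-fold to 15 min and 2.27-fold to 30 min. With normexp background correction and loess the mean folds at 5, 10 and 120 min were 1.13, 6.57 and 5.19, so the first step was smaller. From 30 to 60 min the log2 ratio fell by 0.34 and 0.30 on the arrays of each orientation, across slides. With normexp background correction and median centring the fold was 30.7 after 30 min and 31.2 after 60 min, which turns the order of these neighbours. From 60 to 120 min, within 1 slide, the log2 ratio fell by 2.60 and 2.04, and the fold at 120 min was 16.0% of the highest.

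The spots of Egr1 show the error within an array. From 10 min on, the SD of the log2 ratio over the 8 to 10 spots used was 0.034 to 0.365 per array, and on the 30 and 60 min arrays it was 0.034 to 0.131, which covers error between spots only. The widest spread, 0.679, was on the 5 min array with PACAP38 in Cy3. One of the 10 spots had a control signal under 0.25 of the array's median on 8 of 12 arrays, and it carried an outlier flag, by which it was left out, on 7. Egr1 was also read higher on the array with PACAP38 in Cy5 at every time point, by 0.82 log2 on average (SD 0.26 over n = 6 time points). The median over 15880 probes was 0.02 log2, and 4.66% of them showed a mean gap of this size or more in either direction.

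Egr4 followed. Its probe lies at chr4:119765289-119765348, minus strand, on rn4. Its scaled signal in the control was 35.4 to 300.2, with a median of 144. The fold on the array with PACAP38 in Cy5 and then in Cy3 was 0.779 and 1.097 after 5 min, 2.36 and 3.54 after 10 min, 6.19 and 7.33 after 15 min, 22.3 and 25.8 after 30 min, 40.7 and 32.7 after 60 min, and 13.3 and 12.9 after 120 min. With the processed signals both arrays lay above 2 from 10 min on. At 10 min the control was well above background on 1 of the 2 arrays. The mean fold there was 1.19 with normexp and loess and 1.17 with median centring. The 10 min value was not called, because the p-value limit was missed on the array with PACAP38 in Cy5, where the scaled signals were the lowest of the series (83.3 with PACAP38 and 35.4 in the control).

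The mean folds of Egr4 were 0.924, 2.89, 6.74, 24.0, 36.5 and 13.1 from 5 to 120 min, and Egr4 ranked 6 among the measured probes at 30 and at 60 min. Its highest fold came after 60 min on both arrays, where that of Egr1 came after 30 min on both. At 10 min Egr4 stood at 7.91% of its highest fold and Egr1 at 25.2%. The Egr4 control was well above background on only 1 of the 2 arrays at 10 min, so its share there is approximate. At 120 min Egr4 stood at 36.0% and Egr1 at 16.0%. From 30 to 60 min the log2 ratio of Egr4 rose by 0.87 and 0.34 on the arrays of each orientation, and that of Egr1 fell on both. With 1 replicate per time point this difference in timing has no test.

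Egr3, a member known for roles in muscle spindles, memory and lymphocytes, went from signals not well above background to clear ones. Its brighter probe, at chr15:50482088-50482144 on rn4, was well above background in the control on 0 of 12 arrays, with scaled signals of 3.39 to 10.8. With PACAP38 in Cy5 and in Cy3 the scaled signal was 7.48 and 5.96 after 5 min, 6.62 and 10.7 after 10 min, 45.9 and 20.2 after 15 min, 303 and 288 after 30 min, 724 and 762 after 60 min, and 725 and 643 after 120 min. It was well above background on 1 array at 15 min and on both from 30 min on, and from 15 min on every signal with PACAP38 lay above every control signal.

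Since the control gave only a limit, the change of Egr3 is a lower bound: at least 12.8-fold higher after 30 min, at least 42.3-fold after 60 min and at least 33.3-fold after 120 min. For this bound the mean signal with PACAP38 is set against the higher of the dim signal and the lowest signal that was well above background on that array. At 15 min the bound was only 1.04. The mean level with PACAP38 was 743 after 60 min and 683 after 120 min, and the signal in Cy5 alone was 724 and 725. The other Egr3 probe, at chr15:50478983-50479042, was well above background in neither RNA on any array, so the probes disagree, and with the mean of both probes Egr3 was called at no time point. Under normexp with either scaling the call at 30 min was also lost, and the calls at 60 and 120 min were not. With normexp and loess the folds were 1.95, 5.14 and 4.15 from 30 to 120 min, all below the bounds.

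Egr2, known for its part in Schwann cell myelination and hindbrain patterning, was close to the limit of the array. Its probe at chr20:21883940-21883999, minus strand, on rn4 was well above background in neither RNA up to 30 min. At 60 min it was so with PACAP38 on both arrays, with scaled signals of 40.4 and 36.5 against 13.0 and 4.49 in the control of the same arrays, which gave a bound of at least 2.18-fold. At 120 min each RNA passed on 1 array, the one with PACAP38 in Cy5, where the fold was 1.05, and the fold on the other array was 2.89. The call at 60 min was lost under normexp with either scaling, with a fold of 1.145 with loess.

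Nab1, the corepressor regarded as present without stimulation, had a flat ratio at a level measured on every array. Its brighter probe, at chr9:46122548-46122607 on rn4, was well above background in both RNAs on all 12 arrays, with scaled signals of 261 to 1719 in the control and 283 to 1596 with PACAP38. The ratio lay between 0.904 and 1.20 on every array, and the mean folds were 1.04, 1.12, 1.06, 0.954, 0.990 and 1.12 from 5 to 120 min. The lowest signals were both on the 10 min array with PACAP38 in Cy5 (283 with PACAP38 and 261 in the control), so the ratio there, 1.08, did not stand apart. The other Nab1 probe, at chr9:46104881-46113704, was well above background in neither RNA on any array.

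Nab2, the corepressor regarded as inducible, was read differently by the dyes. It was well above background in the control on 6 of 12 arrays, those with the control in Cy5, and with PACAP38 on 8 of 12, the 6 with PACAP38 in Cy5 and those with it in Cy3 at 60 and 120 min. The ratio on an array with PACAP38 in Cy5 is thus taken to a control signal at background. Its probe at chr7:67646690-67646749, minus strand, on rn4 gave folds of 3.69, 1.88, 3.69, 2.19, 3.14 and 6.53 from 5 to 120 min on the arrays with PACAP38 in Cy5. On the arrays with PACAP38 in Cy3 the folds were 0.270, 0.143, 0.396, 0.490, 0.760 and 1.60. Both arrays lay above 1 at 120 min only. Whichever RNA was in Cy5 gave the higher signal up to 60 min, and the log2 ratio was higher on the array with PACAP38 in Cy5 by 2.82 on average (SD 0.84 over n = 6 time points), and 0.233% of 15880 probes showed a mean gap of this size or more.

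Within a dye, the scaled signals of Nab2 in Cy5 were 55.7, 101, 66.1, 75.2, 56.8 and 97.7 with PACAP38 and 77.5, 83.5, 70.1, 71.1, 58.8 and 47.3 in the control. Their ratio was 0.719 to 1.21 up to 60 min and 2.06 at 120 min. Such a ratio compares different arrays, and for Nab1, flat within arrays, it was 2.40 at 5 min and 0.219 at 10 min in Cy5, so an array difference can be larger than the Nab2 value at 120 min. In Cy3 the signals at 120 min were 75.8 with PACAP38 and 15.0 in the control, the latter not well above background. The mean fold over both orientations was 0.998, 0.518, 1.21, 1.04, 1.54 and 3.23 from 5 to 120 min, a description only, since at each time point at least 1 of the 4 signals behind it was at background. The value at 120 min was the highest of the 6 in both orientations, and it was not called, since with PACAP38 in Cy3 the fold was under 2 and the spot p-value, 0.0644, over the limit. On the arrays with PACAP38 in Cy5 taken alone, Nab2 was called higher at 15, 60 and 120 min. On those with PACAP38 in Cy3 taken alone, it was called lower at 5, 10 and 15 min. With normexp and loess its mean fold at 120 min was 1.12.

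**Figure D3:**
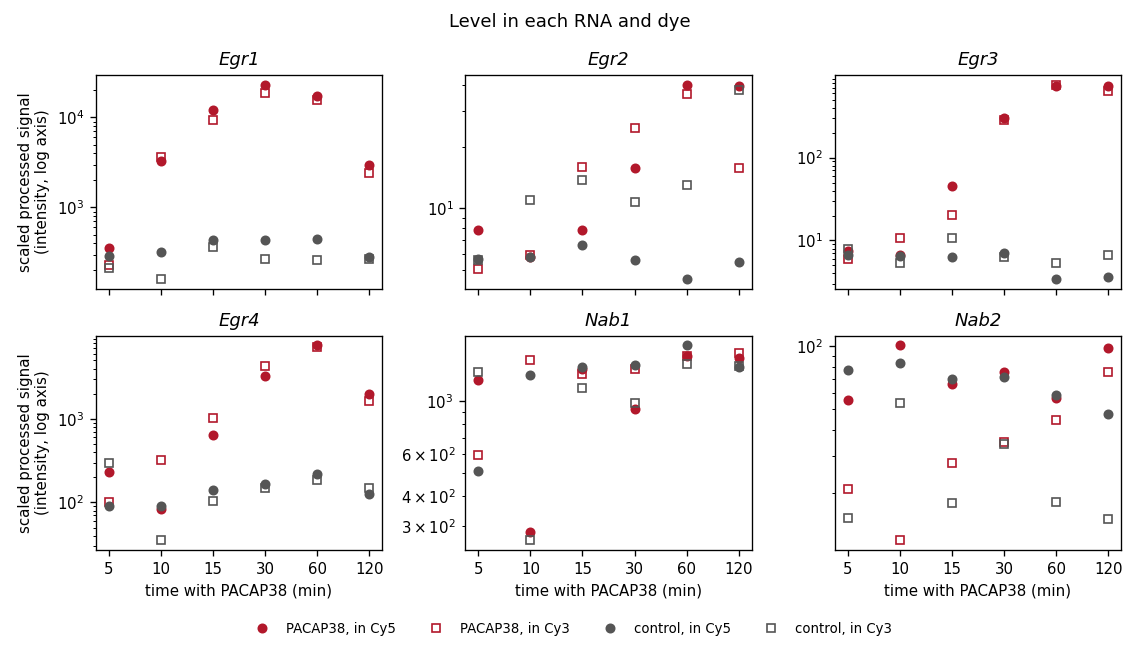
Scaled processed signal (intensity, log axis, a different range in each panel) of each gene with PACAP38 (red) and in the control (grey), filled in Cy5 and open in Cy3. Egr3 signals with PACAP38 reach 762 against at most 10.8 in the control, the Nab1 signals of both RNAs lie together, and filled Nab2 symbols lie above open ones of the same RNA.

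Fits over all time points asked whether the members changed on average and with time, with the 6 time points as replicates and limma over 20203 probes. No probe passed an adjusted p below 0.05 for a mean log2 ratio other than 0 (0.0% higher, 1845 probes at an unadjusted p below 0.05). Egr1 had a mean log2 ratio of 3.95 ± 0.72 (SE, n = 6), above 0 at 6 of 6 time points, with a limma p of 0.000995 and an adjusted p of 0.419. Without the 5 min arrays, where the Egr1 ratio was nearest to 1, its mean was 4.70 and its adjusted p 0.0404. In that fit 0.0692% of probes passed as higher. With any other time point left out, the adjusted p of Egr1 was 0.474 to 0.789, and with the slide as a block it was 0.701. With PACAP38 in Cy5 alone, where 6.75% of probes passed as higher, the adjusted p was 0.00954 for Egr1 and 0.00392 for Nab2. The mean of Nab2 was then 1.69. On these arrays the Nab2 control, in Cy3, was not well above background, so both Nab2 values describe ratios to background and support nothing on their own. A single orientation also keeps the dye gap of Egr1 and of Nab2. With PACAP38 in Cy3 alone, where 6.88% passed as higher, the adjusted p was 0.0204 for Egr1 and 0.0222 for Egr4. The mean of Nab2 was then -1.13 (adjusted p 0.108). Egr4 had 2.94 ± 0.69 with an adjusted p of 0.530, and Nab1 had 0.06 ± 0.05 with an adjusted p of 0.590.

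In the fit of the log2 ratio on log2 minutes, 0.525% of all probes had a rising slope that passed. Egr3 entered it only through the PACAP38 channel, since its control was never well above background. Its slope of 1.90 ± 0.24 log2 per doubling of time, with a limma adjusted p of 0.0450, is therefore a description of ratios to background and supports nothing on its own. With normexp and loess it was 0.58 with an adjusted p of 0.0621, and over the alternatives the adjusted p ran from 0.0446 to 0.894, the highest with the slide as a block. Egr4 had a slope of 0.98 ± 0.26 with an adjusted p of 0.0923 and Nab2 one of 0.41 ± 0.13 with an adjusted p of 0.114. With time in minutes Nab2 passed, with an adjusted p of 0.0211, as did 10.2% of all probes with a rising slope, and with no other alternative. On log2 minutes its slope was 0.045 with normexp and loess (adjusted p 0.0819) and -0.04 with the slide as a block (adjusted p 0.991). Egr1, which rose and declined, had a slope of 0.64 ± 0.42 with an adjusted p of 0.359, and Nab1 had 0.00 ± 0.03.

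Differences between members were tested in 3 pairs over the 6 time points by an exact two-sided sign-flip permutation test, whose smallest possible p is 0.0312. Egr1 exceeded Nab2 by 3.67 log2 (SD 2.23) on average, at 6 of 6 time points, with an exact p of 0.0312 and 0.0938 after Benjamini-Hochberg adjustment. The size and spread of both differences with Nab2 carry its dye gap and its signals at background, as its mean log2 ratio of 0.28 was 1.69 with PACAP38 in Cy5 and -1.13 with it in Cy3. Egr1 exceeded Egr4 by 1.01 log2 (SD 1.09), at 5 of 6 time points, with an exact p of 0.125 and an adjusted one of 0.188. Nab2 and Nab1 differed by 0.22 log2 (SD 0.87) with an exact p of 0.562. None of the 3 passed 0.05 after adjustment. With normexp and loess the first difference was 3.18 and the second 1.49, both at 6 of 6 time points with an adjusted exact p of 0.0469, and the third was -0.04.

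**Figure D4:**
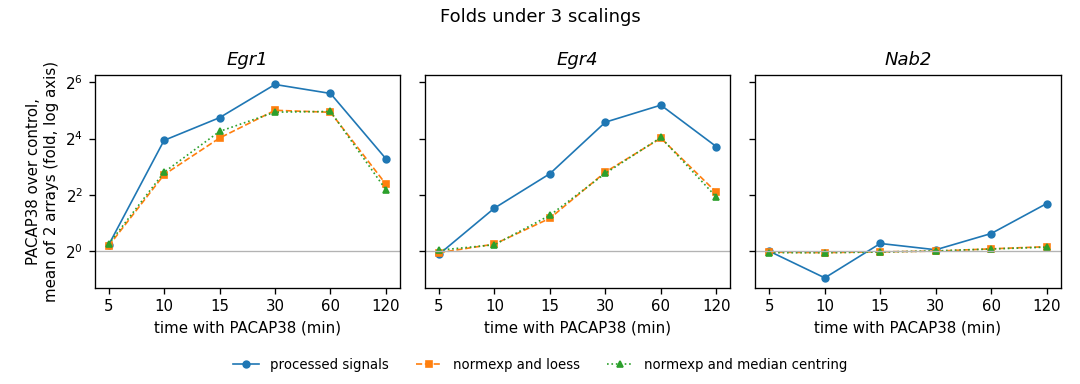
Mean fold of both arrays (log axis) for Egr1, Egr4 and Nab2 from the processed signals and after normexp with loess or median centring. The folds of Egr1 after 30 min are 60.7, 32.1 and 30.7, and those of Egr4 after 60 min are 36.5 with the processed signals and 16.2 with loess, while Nab2 after 120 min goes from 3.23 to 1.12 with loess.

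Another background correction, normexp with an offset of 50 added to both signals, gave smaller folds. With normexp and loess, Egr1 reached 32.1-fold after 30 min and 30.6-fold after 60 min, while Egr3 reached 5.14-fold after 60 min, and Egr4 reached 7.02-fold after 30 min and 16.2-fold after 60 min. All Egr1 and Egr4 calls were kept under both normexp scalings.

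None of 14 genes upstream of the Egr promoters was called at any time point, a count near the background of at most 1.95% of probes called higher and 1.53% lower, among them Srf, which acts at CArG boxes, Creb1, and Adcyap1r1, the PACAP receptor. The median log2 ratio of the 13 measured genes was between -0.07 and 0.02 at the 6 time points, and that of all measured probes between -0.02 and 0.00. At 120 min the fold was 0.579 for Srf, 0.5999 for Creb1 and 1.01 for Adcyap1r1.

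The repressor complex that Nab2 recruits was also without a call. None of 11 genes passed at any time point, which is again near the background, and at 120 min their median log2 ratio was 0.12, or 0.008 with normexp and loess, against -0.02 over all measured probes. The fold there was 0.843 for Chd4, the complex's remodelling ATPase, 0.871 for Hdac1, a deacetylase, and 1.67 for Mta1, the highest of the 11. Of 4 other zinc finger factors of GC-rich sites none was called, also near the background (at most 1.95% of probes higher and 1.53% lower). Sp4 and Wt1 were never well above background in the control. Sp1 was at 0.629-fold at 120 min.

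Among 22 genes known as Egr targets, 21 were on the array, 11 were measured in both RNAs at 120 min, and 2 were called at some time point (1.95% of all probes were called higher at 120 min). Arc, a synaptic immediate early gene, was called from 10 min on, with folds of 2.03 and 2.10 after 10 min, 3.82 and 3.57 after 15 min, 6.51 and 5.59 after 30 min, 5.08 and 4.37 after 60 min, and 2.18 and 2.13 after 120 min on the arrays of each orientation. Its highest fold came at 30 min, as for Egr1. Faslg, the ligand of the death receptor Fas, was called at 120 min, where it was at least 2.95-fold higher, and its control was well above background on 0 of 12 arrays. With normexp and loess its fold was 1.19.

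Other targets were not called. Vegfa, an angiogenic growth factor, was at 2.44-fold and 1.87-fold on the arrays at 120 min, Th, the rate-limiting enzyme of catecholamine synthesis, at 2.15-fold and 1.52-fold, and Tgfb1 at 1.64-fold on average. The median log2 ratio of the measured targets was 0.37 at 120 min against -0.02 over all measured probes. The middle gene there was Ache, whose arrays read 4.33-fold and 0.388-fold, and with normexp and loess the median of the targets was 0.05. In the control, 8 of the 21 were never well above background.

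**Figure D5:**
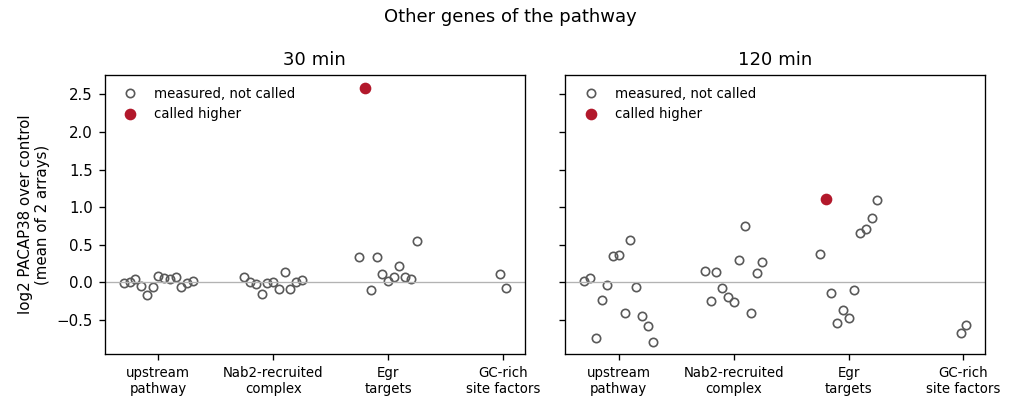
Log2 ratio of PACAP38 to control (mean of 2 arrays) at 30 and 120 min for the measured genes of 4 lists, one point per gene, filled red where called. At 30 min Arc stands highest, and Vegfa, at 1.46-fold, is next, and at 120 min the points spread both ways, with Srf at 0.579-fold and Vegfa at 2.13-fold.

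The time courses most like those of the members were looked for among 1023 or 1024 genes called at some time point and measured in both RNAs at all 6. The nearest to Egr1 was Btg2, an antiproliferative immediate early gene, with folds of 1.095, 10.7, 24.1, 45.8, 58.4 and 25.3 and a root mean square difference of 0.64 log2. The other two nearest carry no gene symbol (1.03 and 1.18 log2). The nearest to Egr4 was Junb, a subunit of the AP-1 factor, with folds of 1.18, 3.95, 6.94, 13.8, 20.3 and 14.2 and a difference of 0.53 log2, and the next carry no symbol (0.60 and 0.64 log2). No neighbours are given for Nab2, whose arrays disagree. Cemip2 and Riok3 were nearest to Nab1 (0.38 log2 each). Only called genes could be found, so these were at 2.04-fold and 2.06-fold after 120 min, where Nab1 was at 1.12-fold. All these points share the same arrays.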

How the data were processed

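Scans of the 12 arrays were quantified by the authors in Agilent's Feature Extraction, given as version 11.0.1.1 in the submitters' processing notes and 12.0.3.1 in the file headers. The deposited intensity values are background-subtracted and LOWESS dye-normalized. The deposited log10 ratios (Cy5 over Cy3) and the p-value of each spot were also made by the authors' software.

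From the processed signals a log2 ratio (PACAP38 over control) was taken per array with no pseudocount and turned by dye. The 1639 control spots and 197 to 267 outlier spots per array were left out, spots of a probe were averaged, and their p-values taken at the median. A channel counted as well above background where at least 0.5 of a probe's spots were. The brightest probe stands for a gene. Scaled signals, used for levels and bounds, come from Aquantile normalization in limma. Other genes were named where a list member was called at some time point, with up to 3 more per list, beside the markers checked. Dusp5 and Ache were named after their values were seen. Names were updated for 1599 of 41012 probes, and 19277 matched RefSeq.

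Mean and slope were fitted with limma 3.58.1 in R 4.3.3 over 20203 probes well above background in either channel on both arrays of a time point, at an adjusted p below 0.05, after a test on simulated data. Python 3.11.15, pandas 2.3.3, numpy 2.4.6 and matplotlib 3.10.9 did the rest. Alternatives were normexp (offset 50) with loess or median centring, the deposited table, all probes of a gene, 1 array alone, other call limits, other filters, slide as a block and time points left out. The members and lists were chosen with earlier results of these data known. The number of arrays limits the precision. Proteome data were not analysed here.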

Additional observations from a re-analysis of the deposited data

Results flagged for a closer look

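Egr3 was flagged because its ratio differed between time points by a test: the slope of its log2 ratio was 1.90 per doubling of time with a limma adjusted p of 0.0450. Its control signal was well above background on 0 of 12 arrays, so it entered the fit only through the PACAP38 channel, and the value describes ratios to background.

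Nab1 was flagged because both arrays lay above 1 at 10 min and both below 1 at 30 min. The log2 ratios were 0.16 and -0.07, a difference of 0.23 that was not tested and that is smaller than the gap between the arrays of opposite dye at some time points (up to 0.36 log2).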

How the results depend on the processing

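Every log2 ratio of a called member kept its sign under every alternative run. The normexp scalings moved 12 of 13 such ratios by more than the spread between both arrays. They add an offset of 50 to both signals, which brings ratios nearer to 1 by construction, most for dim signals. How much of the move is due to the offset was not tested. The count of members called higher at 10 min was 2 in place of 1 without the p-value limit. With 1 array orientation left out in turn, it was 1 to 2 at 10 min and 2 to 4 at 15 min. With PACAP38 in Cy3 alone, Nab2 was called lower at 5, 10 and 15 min. The share of all probes called under these looser rules is not given, so these counts have no background to be set against. A mean over the spots replaced by their median, added after seeing the data, changed no member call.

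The count of probes with a slope was 147, and it was 29 with normexp and loess, 1 with normexp and median centring, 0 without the filter on dim probes, 976 with probes above background in both channels on all arrays, 0 with the slide as a block and 5335 with time in minutes. Leaving out 1 orientation or 1 time point gave 0 to 153. The count for the mean effect, 0, became 0 to 3535 in that way, with 15 without 5 min.

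Egr1 minus Egr4 was 1.49 with loess and 1.52 with median centring, and Egr1 minus Nab2 was 3.18 and 3.22, all then past the threshold. Egr1 minus Egr4 ran from 0.50 to 1.51 and Egr1 minus Nab2 from 2.66 to 4.67 by orientation. Nab2 minus Nab1 turned to -0.0355 with loess, -0.0573 with median centring and -1.19 with PACAP38 in Cy3 alone, against 1.63 in Cy5 alone. The slope of Egr3 lost its call under normexp, without a filter, with the slide as a block, with time in minutes, and without any 1 orientation or time point (1.75 to 2.30 with time points left out). Signal over background limits Egr2, Egr3 and Nab2, whose control was well above background on 1, 0 and 6 of 12 arrays. It also limits the fold of Egr4 at 10 min, as the Egr4 control was well above background on 11 of 12 arrays.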
